A study of Rattus norvegicus with 9 samples.

Results

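The Notch pathway genes described here are 3 ligands (Jag1, Jag2 and Dll1), 4 receptors (Notch1, Notch2, Notch3 and Notch4) and 3 target genes (Hes1, Hey1 and Heyl), taken by their symbols from a table of 32883 rat genes, in which 10 of 10 were found. Liver RNA of 9 male Sprague-Dawley rats had been sequenced, with 1 library per rat and 3 rats in each of 3 groups. The normal control rats (N1, N3 and N12) received a normal diet and no carcinogen. The DEN model rats (M13, M17 and M24) were injected into the peritoneum each week with 0.01% diethylnitrosamine (DEN), a liver carcinogen that hepatocytes convert to a DNA-alkylating agent, over 16 weeks. The PZH administration rats (G27, G28 and G42) received the same DEN injections together with PZH (Pien-Tze-Huang), a traditional Chinese medicine. The study gave PZH at a low and at a high dose, and the dose that the sequenced rats received, their age and the week of sampling are not given in the sources used here. Groups follow the letter of each rat's name, because the treatment field of the labels gives PZH for DEN model rats as well. The RNA came from liver tissue, so each value is an average over all cells in the sample.

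Notch signalling works by contact between neighbouring cells. A ligand of the Jagged or Delta-like family on the surface of a cell binds a Notch receptor on the next, ADAM proteases and gamma-secretase cut the receptor, and the freed intracellular part joins the DNA-binding protein RBPJ to switch on genes of the Hes and Hey families, which encode transcriptional repressors. In liver the pathway is best known for bile duct formation, for which Jag1 and Notch2 are needed, and Notch components are also found in endothelial cells, stellate cells and the smooth muscle of vessel walls, where Notch3 is the characteristic receptor.

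The libraries held between 14922973 and 27161496 counted reads, so that 3 counts corresponded to 0.125 to 0.252 CPM (counts scaled to a common library size). The scaling factors that edgeR's TMM method computes from the bulk of genes were 0.731 to 0.799 in normal control rats, 1.21 to 1.58 in DEN model rats and 0.864 to 0.942 in PZH administration rats. Scaling by library totals alone moved the log2 fold change of the median gene from 0.03 to 0.90 in the DEN model against normal control comparison, from 0.005 to -0.67 in PZH administration against DEN model, and from -0.02 to 0.21 in PZH administration against normal control. Changes below are therefore relative to the TMM-scaled median, and members whose direction or call turned with this choice are named. The summed FPKM (fragments scaled for transcript length and library size) of 6 hepatocyte markers was 41300 to 47600 in normal control, 13600 to 23300 in DEN model and 37700 to 53300 in PZH administration rats, the highest of the cell type lists in every rat.

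Among the members, Hes1 stood highest in every group. Its FPKM was 18.5 ± 6.84 (SD, n = 3) in normal control rats, 19.1 ± 3.77 in DEN model rats and 10.9 ± 1.97 in PZH administration rats. Notch2 came next with 4.86 ± 1.1, 9.32 ± 1.39 and 5.88 ± 0.862 FPKM, and Notch1 followed with 3.48 ± 0.641, 6.58 ± 1.31 and 3.37 ± 0.409 FPKM. In normal control rats the ranges of Hes1, Notch2 and Notch1 did not overlap each other, and Notch1 lay above the other 7 members. Below it Dll1 (1.22 FPKM), Hey1 (1.13), Heyl (0.584), Notch4 (0.552), Jag1 (0.541) and Notch3 (0.356) overlapped their neighbours in this order, and Jag2 was lowest at 0.0948 ± 0.0228 FPKM. In DEN model rats Jag1 (5.97 ± 1.06 FPKM) came after Notch1, with a range overlapping it, and Heyl (4.77 ± 1.05) and Notch3 (4.41 ± 2.25) came next. Hey1 was lowest there at 0.477 ± 0.362 FPKM. In PZH administration rats the first 4 places were again Hes1, Notch2, Notch1 and Jag1 (1.94 ± 0.607 FPKM), and the ranges of all members from Jag1 down to Jag2 (0.257 ± 0.112) overlapped those of their neighbours. FPKM is not TMM-scaled, so the groups' FPKM also carry the shift between scalings given above.

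**Figure D1:**
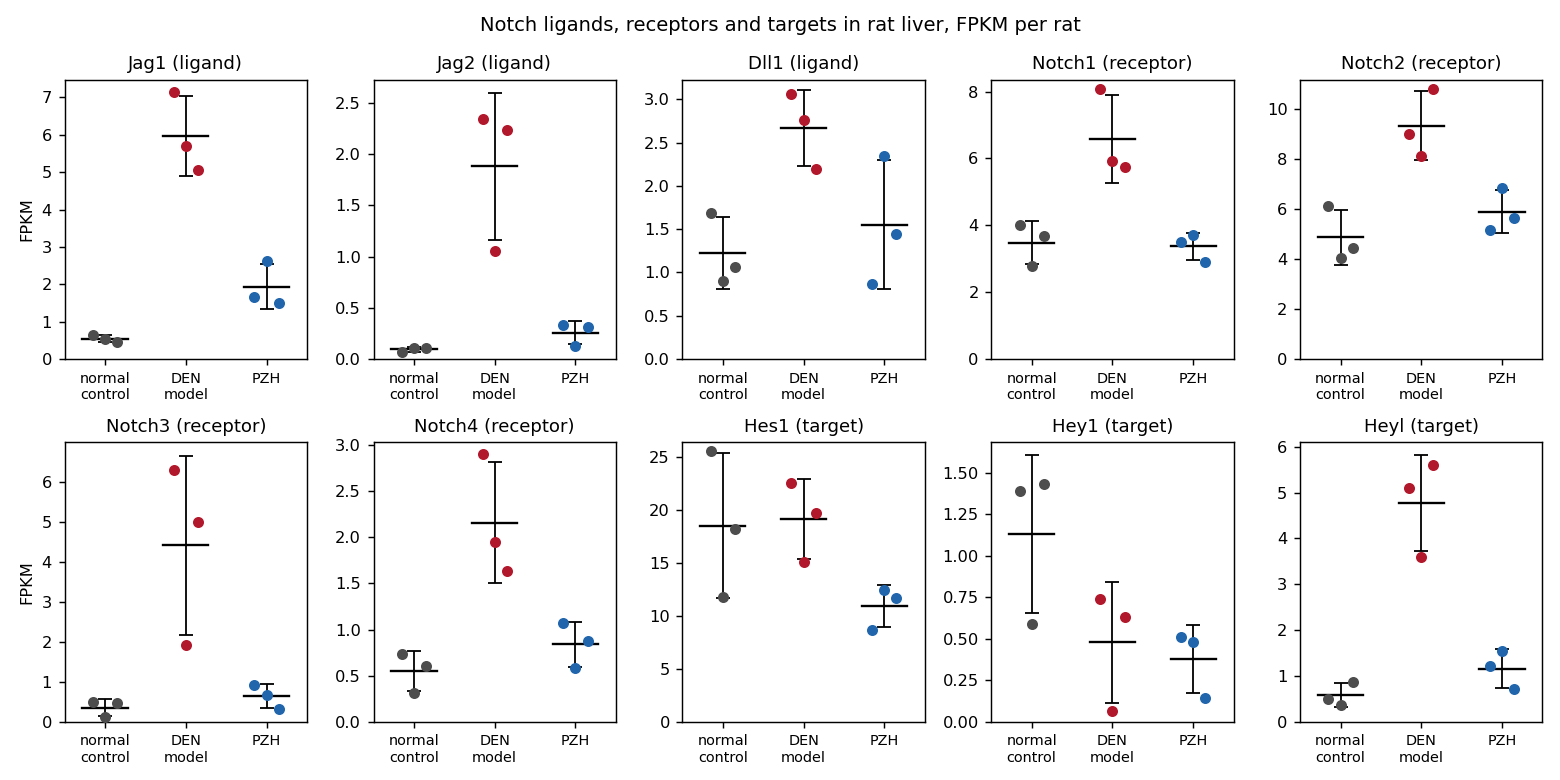
Deposited FPKM of the 10 members by group, with 1 point per rat, the group mean as a line and the SD over 3 rats as a bar, each panel on its own linear axis from 0. On this scale, which is not TMM-scaled, 8 members lie higher in all 3 DEN model rats than in any normal control rat, while the Hes1 and Hey1 points of these groups overlap. The share of all genes that separate in this way was not counted, and without TMM the median gene is 0.90 higher on the log2 scale. By TMM-scaled CPM the ranges of Notch1, Notch2 and Dll1 overlap between these groups.

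The DEN model against normal control comparison asks how the carcinogen-injured liver differed from the normal one. By edgeR's quasi-likelihood test, with p-values adjusted by Benjamini and Hochberg over all 14255 genes tested, 5 of 10 members were higher in DEN model rats (Jag1, Jag2, Notch3, Notch4 and Heyl), 2 were lower (Hes1 and Hey1) and 3 did not pass an adjusted p of 0.05 (Dll1, Notch1 and Notch2). Over all genes 25.3% were called higher and 20.5% lower. The study's screen was a log fold change beyond 2 in either direction, read here as log2, and an unadjusted P under 0.001. Its cut-offs were applied to the edgeR fit made here, not to the study's own values. At this screen 4 of 10 members passed (Jag1, Jag2, Notch3 and Heyl), beside 12.3% of all genes. The median log2 fold change of the 10 members was 0.72, and that of all genes 0.03. The direction thus differed within the family, with ligands and receptors among the higher genes and targets on both sides. With library totals 8 members were higher and 0 lower (8 at an unadjusted p under 0.05). Under that scaling 9084 of all 14255 genes were called, 8126 of them higher.

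Among the ligands, Jag1 is the Jagged protein whose loss causes bile duct paucity. The gene (ENSRNOG00000007443, chromosome 3, 130079361 to 130114770 in the authors' file, genome build not given in the sources used here) had 57, 49 and 41 counts in N1, N3 and N12, equal to 4.45, 4.11 and 3.13 CPM. It had 630, 528 and 431 counts in M13, M17 and M24, equal to 26.8, 26.1 and 17.9 CPM, so every DEN model rat lay well above every normal control rat. Jag1 was 6.13-fold higher in DEN model rats (log2 fold change 2.62 ± 0.249, SE, adjusted p = 2e-04).

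Jag2, the second Jagged ligand (ENSRNOG00000013927, chromosome 6, 137711155 to 137733026), was close to the limit of detection in normal liver. Its counts were 5, 8 and 8 in normal control rats and 168, 79 and 155 in DEN model rats. The groups did not overlap, and M17 was the lowest of the DEN model rats. Jag2 rose 10.5-fold, by 3.39 ± 0.418 (SE) on the log2 scale (adjusted p = 0.00054). An annotated miRNA gene overlaps the Jag2 locus.

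Dll1, a Delta-like ligand (ENSRNOG00000059984, chromosome 1, 57318708 to 57327379), was at 7.8, 4.53 and 4.88 CPM in normal control rats and at 7.56, 8.36 and 5.12 CPM in DEN model rats. These ranges overlapped. Its log2 fold change was 0.31 ± 0.305 (SE, adjusted p = 0.44), and it passed the test only with library totals (1.14, adjusted p = 0.015).

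Of the receptors, Notch3 (ENSRNOG00000004346, chromosome 7, 14138495 to 14189688) differed most between these groups. It had 59, 13 and 55 counts in normal control rats, equal to 4.6, 1.09 and 4.19 CPM. In M13, M17 and M24 it had 730, 234 and 558 counts, equal to 31, 11.6 and 23.2 CPM. M17 was again the lowest DEN model rat, at a level above all normal control rats. Notch3 rose 6.71-fold, by 2.75 ± 0.519 (SE) on the log2 scale (adjusted p = 0.0034). An annotated protein-coding gene, AABR07055864.2, and an miRNA gene overlap the Notch3 locus, so reads of these genes may not have been told apart.

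Notch4, a receptor known mainly from endothelium (ENSRNOG00000000442, chromosome 20, 4329811 to 4353785), was at 6.01, 2.77 and 4.88 CPM in normal control rats and at 12.6, 10.4 and 6.74 CPM in DEN model rats. The log2 fold change was 1.14 ± 0.346 (SE, adjusted p = 0.026). This call was lost when N3, N12, M13 or M17 was left out, with adjusted p from 0.054 to 0.1. The Notch4 locus overlaps another annotated protein-coding gene, LOC103689965, and the strand setting of the counting is not given in the sources used here, so reads of these genes may not have been told apart.

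Notch1 (ENSRNOG00000019322, chromosome 3, 3905453 to 3951025) and Notch2 (ENSRNOG00000018835, chromosome 2, 200187179 to 200320215), the broadly expressed receptors, did not pass the test. Notch1 was at 48, 36.1 and 43.8 CPM in normal control rats and at 51.8, 46.5 and 34.7 CPM in DEN model rats (log2 fold change 0.07 ± 0.195, SE, adjusted p = 0.78). Notch2 was at 90.7, 65.3 and 65.3 CPM against 71.4, 78.8 and 81.1 CPM (0.08 ± 0.181, adjusted p = 0.73). The CPM ranges of the groups overlapped for both receptors. With library totals both were higher in DEN model rats, by 0.92 for Notch1 (adjusted p = 0.0055) and 0.94 for Notch2 (adjusted p = 0.0049) on the log2 scale, which is about the shift of the median gene under that scaling.

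The targets differed in their changes. Heyl, a Hey family repressor that is found in vascular smooth muscle and pericytes (ENSRNOG00000015318, chromosome 5, 140923914 to 140940905), had 38, 28 and 67 counts in normal control rats, equal to 2.96, 2.35 and 5.11 CPM. In DEN model rats it had 377, 279 and 399 counts, equal to 16, 13.8 and 16.6 CPM. All DEN model rats lay above all normal control rats, and Heyl rose 4.48-fold, by 2.16 ± 0.307 (SE) on the log2 scale (adjusted p = 0.00098).

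Hes1, the most widely used readout of Notch signalling (ENSRNOG00000001720, chromosome 11, 74312806 to 74315248), went the other way on the TMM scale. It was at 46.3, 23.3 and 32.9 CPM in normal control rats and at 21.9, 17.9 and 18.1 CPM in DEN model rats, and these ranges did not overlap. The log2 fold change was -0.80 ± 0.245 (SE, adjusted p = 0.026). This direction depended on the scaling, since library totals gave 0.05 (adjusted p = 0.89) and the FPKM ranges of these groups overlapped. The call was also lost without N1, N12, M17 or M24, with adjusted p from 0.059 to 0.093.

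Hey1, another Hey family repressor (ENSRNOG00000011593, chromosome 2, 95320283 to 95322696), was rare in all livers, with 21, 9 and 22 counts in normal control rats and 11, 1 and 9 in DEN model rats. It was called lower, with a log2 fold change of -2.12 ± 0.685 (SE, adjusted p = 0.033). With library totals the difference was -1.24 (adjusted p = 0.16), and with no filter on low counts -2.11 (adjusted p = 0.06). Leaving out N1, N12, M13, M17 or M24 gave adjusted p from 0.051 to 0.11.

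Jag1, Jag2, Notch3 and Heyl passed the test in every alternative in which they were tested, 11 for each gene except Jag2, which a minimum of 10 counts in every rat left out and which was tested in 10. The calls that remained without N12 or without M17 were 4 of 10, those same genes, while over all genes 5604 of 14828 and 6584 of 14697 were called.

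**Figure D2:**
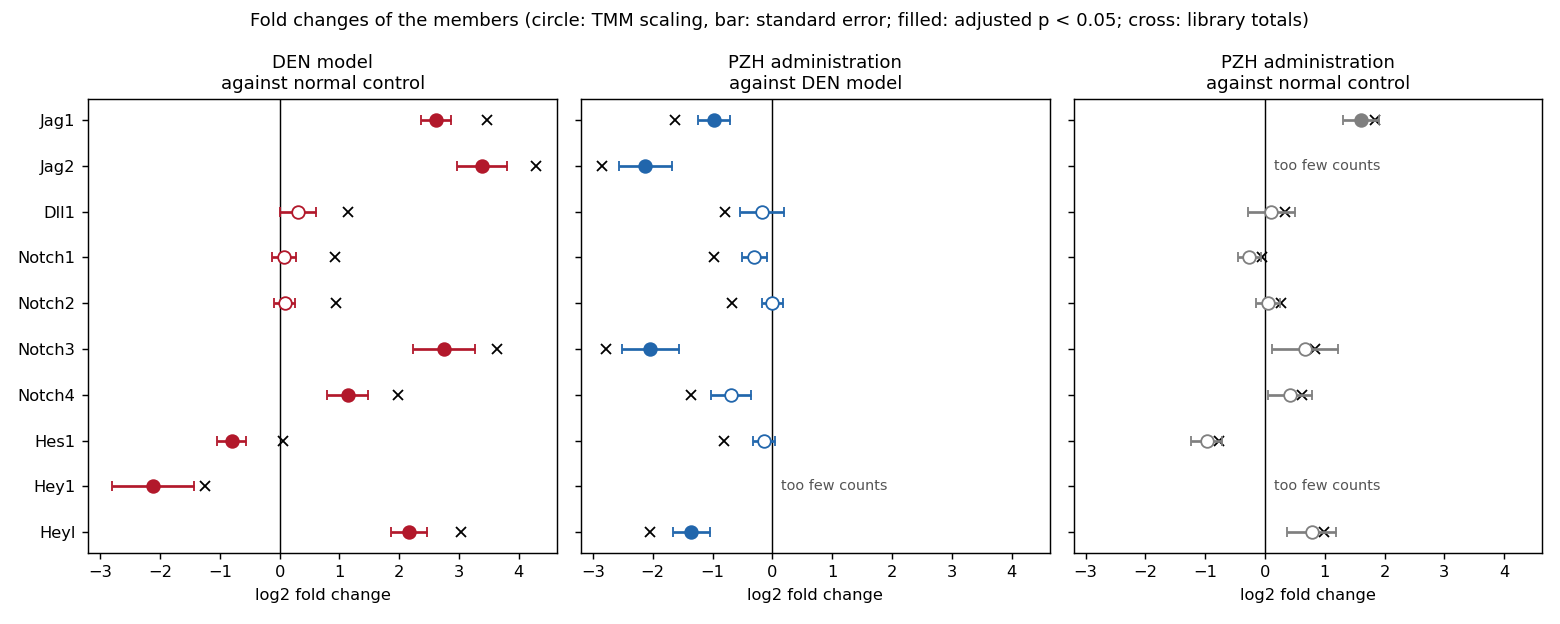
Log2 fold change of each member in the 3 comparisons, with circles for the TMM-scaled fit, bars for its standard error, filled circles for an adjusted p under 0.05 and crosses for the fit on library totals. In the DEN model against normal control panel the Hes1 circle lies at -0.80 and its cross at 0.05, while Jag1, Jag2, Notch3 and Heyl lie above 2 on both scales.

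The start regions of these genes were searched for the core site that RBPJ recognises, TGGGAA, and for its longer form GTGGGAA, on both strands of the 250 bases before each RefSeq transcription start (rat assembly GRCr8, a build whose coordinates are kept apart from those of the authors' file). Promoters of 9 of 10 members were in the RefSeq set used, and Hey1 was not. Hes1 held 2 copies of the core in the sense orientation, at positions -123 and -109 from the start, the former as part of the longer form at -124. Dll1 held a sense copy at -82 and an antisense copy at -185 that belongs to the longer form, and Notch4 held antisense copies at -246 and -93. No copy was found in these windows of Notch1, Notch2, Notch3, Jag1, Heyl or either start of Jag2. Among all 33469 promoters of that set, 22.1% held the core at least once in this window, 2.71% held 2 or more copies and 5.3% held the longer form, whose matches are also counted as core matches. The windows of Hes1 (chr11:84213046-84213295, minus strand), Dll1 (chr1:64993275-64993524, minus strand) and Heyl (chr5:140793021-140793270, plus strand) are printed because Hes1 and Heyl are targets called in opposite directions on the TMM scale (not with library totals, where Hes1 was at 0.05) and Dll1 is the ligand with the longer form. Each reads 5′ to 3′ along the gene and ends at the base before the start, with matches to the core or longer form, on either strand, in capitals.
Hes1: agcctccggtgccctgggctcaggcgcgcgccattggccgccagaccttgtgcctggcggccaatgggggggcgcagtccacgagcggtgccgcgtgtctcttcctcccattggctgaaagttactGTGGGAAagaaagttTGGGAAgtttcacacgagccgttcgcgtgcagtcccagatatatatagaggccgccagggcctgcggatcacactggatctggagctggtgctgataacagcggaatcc
Dll1: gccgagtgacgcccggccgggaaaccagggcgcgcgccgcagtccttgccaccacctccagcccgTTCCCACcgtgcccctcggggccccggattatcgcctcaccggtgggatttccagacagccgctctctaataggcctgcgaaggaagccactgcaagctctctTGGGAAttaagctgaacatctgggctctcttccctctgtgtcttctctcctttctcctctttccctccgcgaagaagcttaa
Heyl: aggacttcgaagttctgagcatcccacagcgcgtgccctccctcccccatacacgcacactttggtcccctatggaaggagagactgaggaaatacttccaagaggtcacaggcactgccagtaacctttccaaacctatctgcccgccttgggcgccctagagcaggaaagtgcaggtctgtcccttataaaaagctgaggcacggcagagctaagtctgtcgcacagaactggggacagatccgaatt

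The PZH administration against DEN model comparison asks what differed in livers of DEN-injected rats that also received PZH. Of the members, 9 were tested, since Hey1 had too few counts, and 4 were lower in PZH administration rats (Jag1, Jag2, Notch3 and Heyl), 0 were higher and 5 did not pass. Over all 14272 genes tested 10.3% were called lower and 8.72% higher. With library totals 8 of 9 were lower, Notch1 (-0.97, adjusted p = 0.0095), Notch2 (-0.67, adjusted p = 0.033), Notch4 (-1.36, adjusted p = 0.013) and Hes1 (-0.81, adjusted p = 0.028) in addition. Under that scaling 6252 of all 14272 genes were called, only 556 of them higher. The shift of the median gene was then -0.67, the same as the value of Notch2. DESeq2 called 4 of the 9 at an adjusted p under 0.05, beside 3781 of all 14272 genes. In the edgeR fit none of the 9 reached the study's cut-offs (4 had an unadjusted p under 0.05), beside 2.43% of all genes. The study reports more genes past its own screen in this comparison, so its calls may differ. The median of the 9 log2 fold changes was -0.69, and that of all genes 0.005. This comparison and the previous one share the 3 DEN model rats, so that they are not independent of each other.

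Jag1 was at 10.7, 15.8 and 8.97 CPM in G27, G28 and G42, below the 17.9 to 26.8 CPM of the DEN model rats. It was 1.96-fold lower (log2 fold change -0.97 ± 0.268, SE, adjusted p = 0.04). Jag2 had 41, 9 and 21 counts in PZH administration rats, equal to 1.75, 0.626 and 1.49 CPM, where the DEN model rats ranged from 3.91 to 7.13 CPM. It was 4.36-fold lower (-2.12 ± 0.44, adjusted p = 0.018).

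Notch3 had 182, 75 and 35 counts, equal to 7.76, 5.21 and 2.49 CPM, and lay under all DEN model rats (11.6 to 31 CPM). It was 4.11-fold lower (log2 fold change -2.04 ± 0.474, SE, adjusted p = 0.024). Heyl was at 6.52, 7.79 and 3.49 CPM, under the 13.8 to 16.6 CPM of the DEN model rats, and was 2.55-fold lower (-1.35 ± 0.304, adjusted p = 0.023). For each of these ligand, receptor and target genes the CPM ranges of the groups did not overlap. The share of all genes that separate by CPM in this way was not counted, here or in the comparison above. By FPKM, which is not TMM-scaled, Notch1, Notch2, Notch4 and Hes1 also lay under all DEN model rats. Among PZH administration rats G42 held the lowest value for Jag1, Notch3 and Heyl while G28 held the lowest for Jag2.

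The remaining receptors did not pass. Notch4 was at 8.02, 4.03 and 5.98 CPM in PZH administration rats (log2 fold change -0.69 ± 0.336, SE, adjusted p = 0.19). Notch1 was at 38.5, 38 and 29.5 CPM (-0.30 ± 0.208, adjusted p = 0.34). Notch2 was at 70.3, 86.6 and 70.8 CPM (0.001 ± 0.171, adjusted p = 1). Dll1 was at 3.67, 9.25 and 5.62 CPM (-0.17 ± 0.368, adjusted p = 0.78), with G27 lowest and G28 higher than any DEN model rat. Hes1 was at 14.5, 19.2 and 18 CPM (-0.14 ± 0.189, adjusted p = 0.63). Hey1 had 13, 7 and 2 counts, against 11, 1 and 9 in DEN model rats.

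The 4 lower calls rested on few rats. Without M13 none of 9 members passed (4 at an unadjusted p under 0.05), without M24 none of 9 (5 at an unadjusted p under 0.05), and without G42 only Heyl did, while over all genes the calls went from 2722 to 271, 725 and 1221. The fold changes kept their sign in each of these fits, from -0.79 to -1.22 for Jag1, -1.80 to -2.44 for Jag2, -1.70 to -2.48 for Notch3 and -1.07 to -1.57 for Heyl when 1 rat was left out in turn.

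In the PZH administration against normal control comparison, which sets DEN-injected rats given PZH beside rats without DEN, 8 members were tested and 1 of them, Jag1, differed, being higher. Over all 13348 genes tested 4.07% were called higher and 1.15% lower. DESeq2 called 2 of the 8 at an adjusted p under 0.05, beside 1320 of all 13348 genes. In the edgeR fit none of the 8 reached the screen (2 had an unadjusted p under 0.05), beside 2.32% of all genes. Jag1 was 3.04-fold higher than in normal control rats (log2 fold change 1.60 ± 0.303, SE, adjusted p = 0.019), with 8.97 to 15.8 CPM against 3.13 to 4.45 CPM and no overlap. Its call was lost without N1, N3, N12 or G28, with adjusted p from 0.051 to 0.099.

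Hes1 had a log2 fold change of -0.97 ± 0.262 (SE, adjusted p = 0.07), with CPM ranges that did not overlap and FPKM ranges that did. DESeq2 called it lower (-0.98, adjusted p = 0.017), as did the fit of all 3 groups together (-0.99, adjusted p = 0.04). Heyl (0.78 ± 0.406, adjusted p = 0.36), Notch3 (0.67 ± 0.551, adjusted p = 0.59), Notch4 (0.42 ± 0.371, adjusted p = 0.62), Dll1 (0.11 ± 0.386, adjusted p = 0.92), Notch2 (0.05 ± 0.198, adjusted p = 0.93) and Notch1 (-0.26 ± 0.194, adjusted p = 0.54) did not pass, and the CPM ranges of the groups overlapped for all 6. Jag2 and Hey1 had too few counts for this test. In the fit of all 3 groups together Jag2 had a log2 fold change of 1.22 ± 0.492 (adjusted p = 0.19) and Hey1 of -1.73 ± 0.723 (adjusted p = 0.21).

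Shares within a class do not depend on how libraries are scaled, because all genes of a rat share the same factor. Of the summed FPKM of the 3 ligands, Jag1 made up 26.5 to 34.8% in normal control rats, 53.3 to 59.9% in DEN model rats and 46.4 to 58.2% in PZH administration rats. Dll1 was the largest of these 3 in normal control rats with 58.2 to 70.6%, and held 23.1 to 29.1% in DEN model and 30.1 to 45.9% in PZH administration rats. The make-up of these 3 ligands thus differed from that of normal control rats in all 3 PZH administration rats. Jag1 exceeded Dll1 in each of them. Dll4, which is outside this sum, was at 2.35, 1.37 and 1.78 FPKM in N1, N3 and N12, above Dll1 in each. It was at 2.17, 1.3 and 0.963 FPKM in M13, M17 and M24, below Jag1 in each. In G27, G28 and G42 Dll4 was at 2.38, 1.53 and 1.78 FPKM and Jag1 at 1.66, 2.63 and 1.51. Dll4 thus lay above Jag1 in G27 and G42.

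Among the receptors, Notch3 accounted for 1.51 to 5.0% of the summed FPKM in normal control, 10.7 to 24.0% in DEN model and 3.29 to 8.63% in PZH administration rats. Notch2 was the most abundant receptor in all 9 rats, at 48.3 to 55.9%, 34.2 to 46.7% and 48.5 to 58.0%. Among the targets, Heyl went from 1.85 to 4.28% in normal control to 18.0 to 21.6% in DEN model and 5.6 to 11.6% in PZH administration rats. Hes1 held 88.8 to 93.1%, 76.0 to 80.4% and 83.5 to 93.3% of the target sum. Such shares show that the members of a class changed unequally and do not tell which of them changed. The ratio of Heyl to Hes1 FPKM, chosen after the values were seen, was 0.0331 ± 0.0143 (SD, n = 3) in normal control, 0.25 ± 0.0303 in DEN model and 0.108 ± 0.0425 in PZH administration rats, and its ranges in the 3 groups did not overlap.

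**Figure D3:**
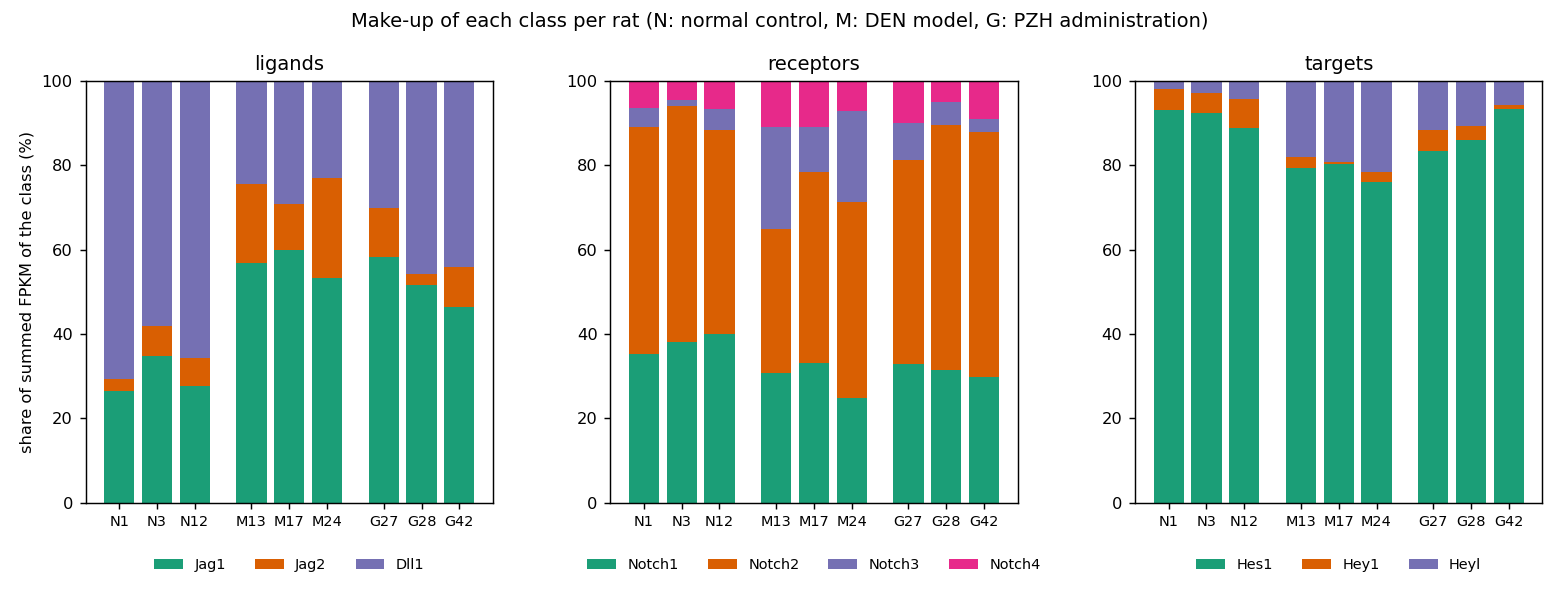
Share of each member in the summed FPKM of its class, in percent, as stacked bars with 1 bar per rat for ligands, receptors and targets. Jag1 takes a larger part of the ligands shown, which leave out Dll4, in all 6 DEN-injected rats than in the 3 normal control rats. Notch3 and Heyl take their largest parts in DEN model rats.

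The other genes of the pathway were read from a list of 55, of which 53 were found and 42 had enough counts for the test. In DEN model against normal control 13 of 42 were higher and 9 lower, beside the 25.3% and 20.5% of all genes, and 2 passed the study's screen, beside 12.3%. Their median log2 fold change was -0.07, near that of all genes. The largest among the genes that passed were in Numbl, a relative of the Notch inhibitor Numb (9, 0 and 12 counts in normal control rats, 152, 97 and 156 in DEN model rats, log2 fold change 3.44 ± 0.69, SE, adjusted p = 0.0044), and in Hes6, a Hes family member that opposes Hes1 (-2.17 ± 0.355, adjusted p = 0.0018). Dtx4, a Deltex ubiquitin ligase (1.82 ± 0.41, adjusted p = 0.0073), and Aph1b, a gamma-secretase subunit (1.57 ± 0.332, adjusted p = 0.0055), followed. With library totals 29 were higher and 2 lower, where 9084 of all 14255 genes were called, 8126 of them higher.

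By role, 3 of 8 cleavage enzymes were higher (Aph1b, Adam10 and Adam17) and 2 lower (Psen2 and Psenen). The ADAM proteases make the outer cut, and the others belong to gamma-secretase. Adam10 rose by 1.46 ± 0.217 and Adam17 by 0.92 ± 0.159 on the log2 scale (SE, adjusted p = 0.0012 and 0.0023). Of 6 genes of the nuclear complex tested, Rbpj (1.14 ± 0.159, adjusted p = 9e-04) and Maml2 were higher and Kat2b was lower. The Fringe glycosyltransferases, which tune the response of receptors to Delta-like and Jagged ligands, split into Mfng and Lfng higher and Rfng lower, and Furin was lower. Dll4, the Delta-like ligand of endothelium, was lower (-1.15 ± 0.34, adjusted p = 0.024). Tle1 was lower and Tle3 higher among corepressors, and Nrarp, a feedback inhibitor and Notch target, was at 0.59 (adjusted p = 0.14). Of the 9 lower genes, Hes6 and Tle1 also passed with library totals, while Psen2 (-0.01, adjusted p = 0.97), Psenen (-0.40, adjusted p = 0.22), Rfng (-0.06, adjusted p = 0.87), Furin (-0.36, adjusted p = 0.23), Kat2b (-0.21, adjusted p = 0.49) and Dll4 (-0.31, adjusted p = 0.48) did not and Itch changed sign (0.36, adjusted p = 0.13). Apart from the 4 changed genes with the largest changes, these were named after their values were seen.

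In PZH administration against DEN model 9 of 42 of these genes were lower and 1 was higher, beside 10.3% and 8.72% of all genes. The largest among those that passed were Numbl (-1.85 ± 0.459, SE, adjusted p = 0.029), Nrarp (-1.50 ± 0.397, adjusted p = 0.035), Mfng (-1.47 ± 0.369, adjusted p = 0.03) and the corepressor Tle3 (-1.20 ± 0.24, adjusted p = 0.017). Nrarp had 63, 55 and 22 counts in PZH administration rats and 224, 101 and 212 in DEN model rats. Adam10, Adam17, Hdac1, Lfng and Dtx4 were also lower, and Tle1 was higher (0.82 ± 0.182, adjusted p = 0.022, and 0.18, adjusted p = 0.45, with library totals). Rbpj had -0.41 (adjusted p = 0.24). Without M13 or without M24 no gene of the list passed (15 and 13 at an unadjusted p under 0.05), without G28 there were 2 and without G42 there was 1, while over all genes 271, 725, 1178 and 1221 were called. DESeq2 called 4 higher and 10 lower, beside 3781 of all 14272 genes, 1812 of them higher. None of 41 passed in PZH administration against normal control (5 at an unadjusted p under 0.05), where DESeq2 called 1 and the fit of all 3 groups called 1, beside 1320 of 13348 and 1000 of 14479 genes.

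**Figure D4:**
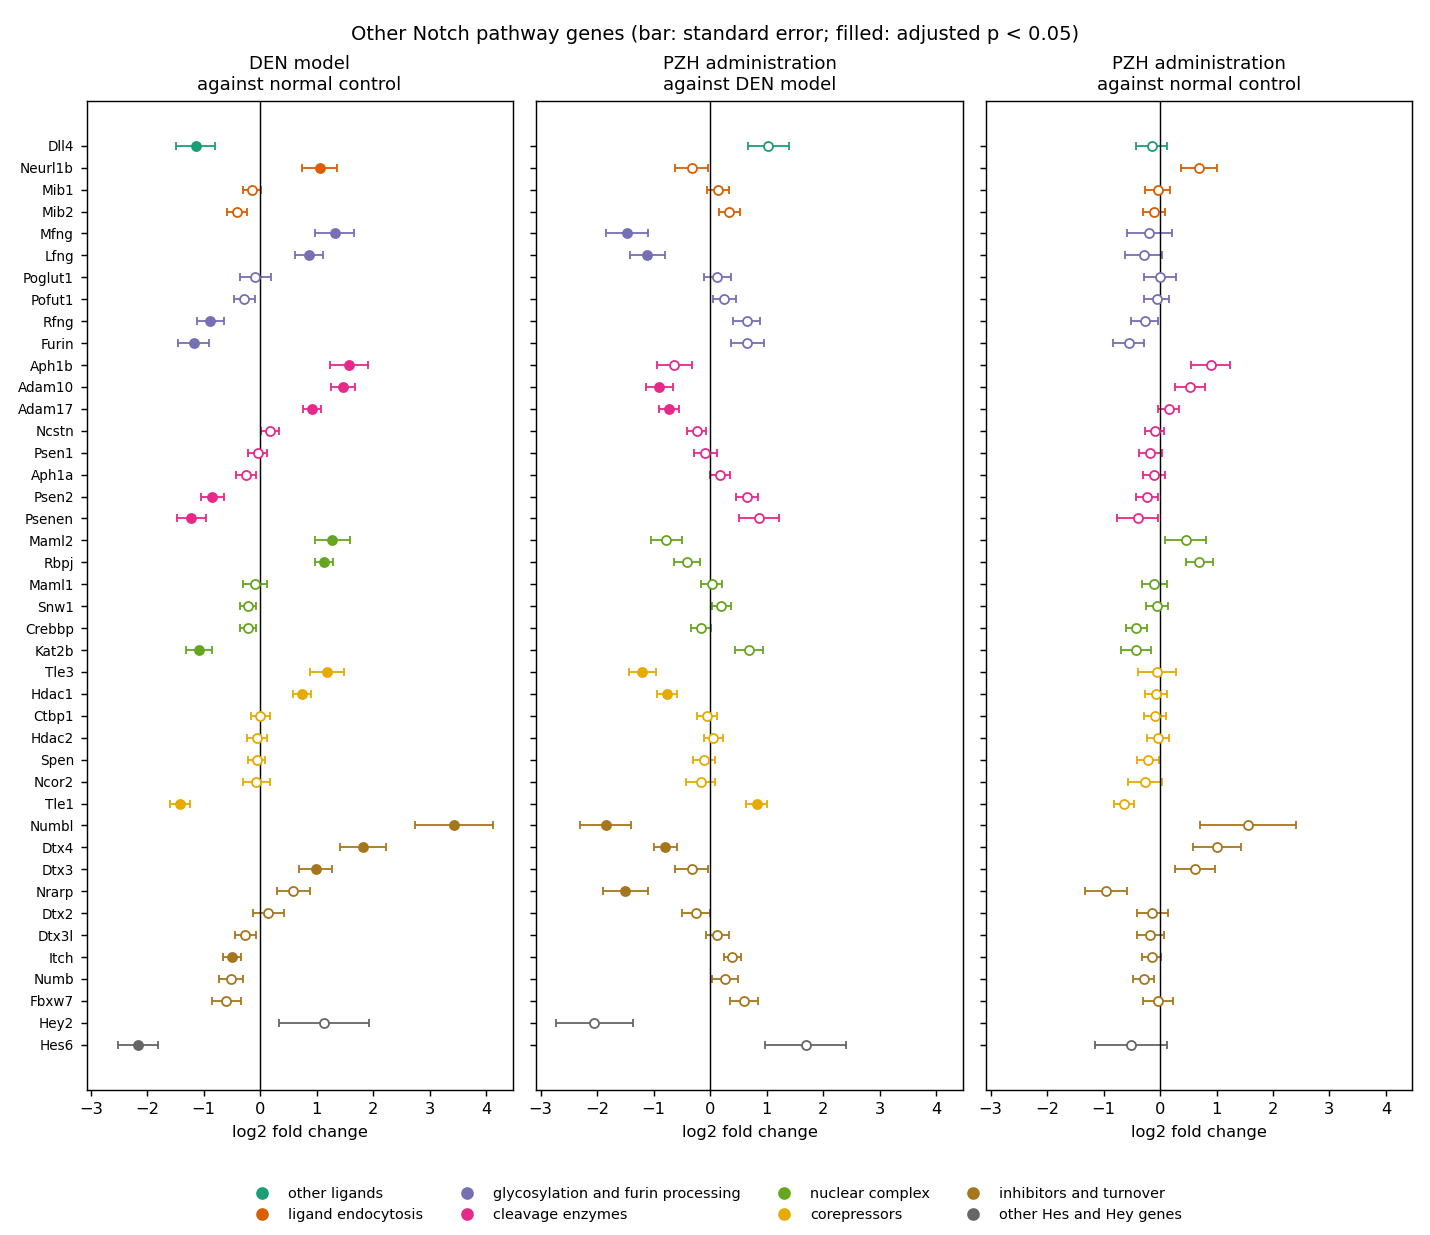
Log2 fold change with standard error of the other Notch pathway genes that were tested, grouped and coloured by role and ordered by the DEN model against normal control value within each role, with filled circles for an adjusted p under 0.05. Filled circles stand on both sides of 0 in the first panel (13 and 9), mostly left of 0 in the second (9 and 1), and none is filled in the last.

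Most markers of bile duct and of stellate and mural cells were higher in DEN model rats and lower again in PZH administration rats. The other marker lists did not share this pattern and are given below. In tissue RNA a change in the number of cells of a type cannot be told apart from a change in RNA per cell. All 8 bile duct markers were higher in DEN model than in normal control rats, and 7 of 8 were lower in PZH administration than in DEN model rats. Their summed FPKM was 9.06 to 13.2 in normal control, 148 to 688 in DEN model and 40.9 to 52.9 in PZH administration rats. Of 8 stellate and mural cell markers 7 were higher in DEN model than in normal control rats and 5 lower in PZH administration than in DEN model rats, with sums of 12.1 to 19.3, 129 to 479 and 42.6 to 51.8 FPKM. M17, the DEN model rat with the lowest Notch3 and Jag2, also had the lowest of these sums among DEN model rats, 148 FPKM for bile duct and 129 FPKM for stellate and mural markers. Jag1, Notch4, Dll1 and Notch1 were instead lowest in M24 among DEN model rats by CPM, the rat with the highest of these sums (688 and 479 FPKM).

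Of 7 endothelial markers found, 2 were higher and 2 lower in DEN model than in normal control rats, and their sums were 61.9 to 72.9, 80.4 to 149 and 65.1 to 83.5 FPKM. For all lists the calls are on the TMM scale and the sums are not. Without TMM the median gene was 0.90 higher in DEN model than in normal control rats on the log2 scale. Of 6 hepatocyte markers 4 were lower in DEN model rats, and 3 were higher in PZH administration than in DEN model rats. Of 6 macrophage markers 2 were lower in DEN model than in normal control rats and 3 lower in PZH administration than in DEN model rats, with sums of 133 to 306, 207 to 303 and 87.1 to 194 FPKM. The part of these cell types in the values of the members was not tested.

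**Figure D5:**
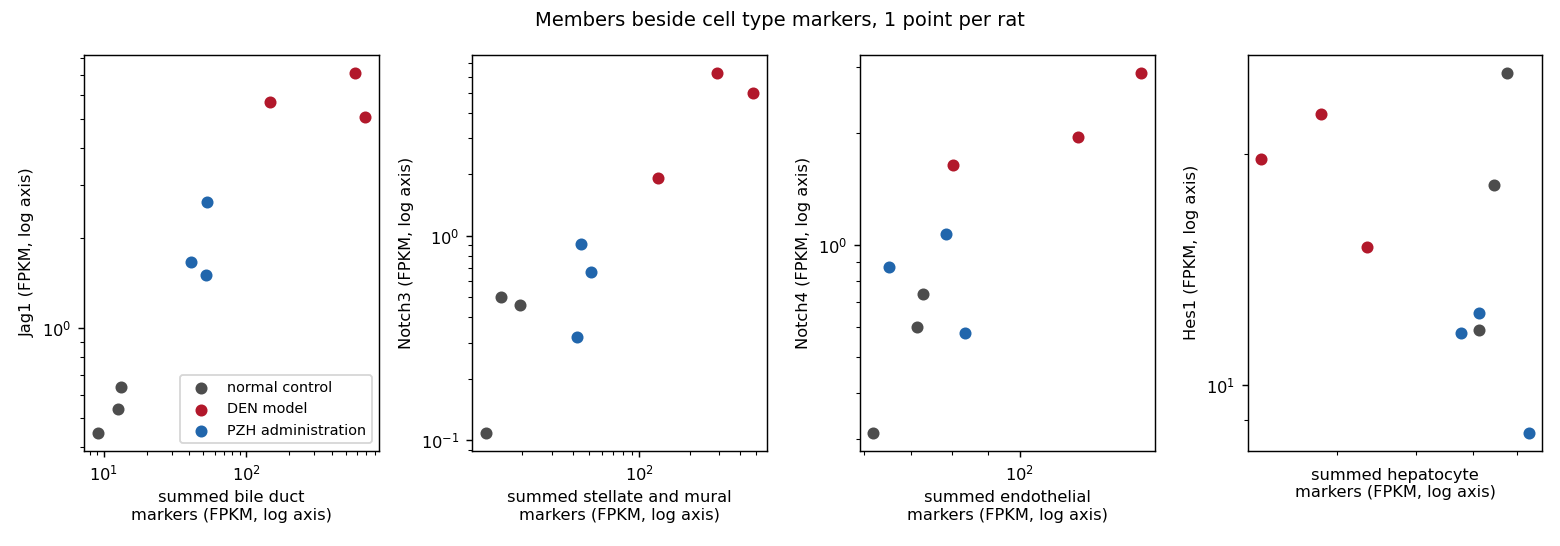
FPKM of Jag1, Notch3, Notch4 and Hes1 (y axes, log scale) against the summed FPKM of bile duct, stellate and mural, endothelial and hepatocyte markers (x axes, log scale), with 1 point per rat coloured by group. The bile duct sum is 9.06 to 13.2 in normal control, 40.9 to 52.9 in PZH administration and 148 to 688 in DEN model rats, the same order of groups as that of Jag1. The stellate and mural sum has this order as well (12.1 to 19.3, 42.6 to 51.8 and 129 to 479), so it is not particular to the bile duct markers.

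The genes whose levels over the 9 rats were most like those of the 4 screened members were taken by the root mean square difference of log2(CPM + 1), centred on the normal control mean, among 12760 genes with an official symbol. For Jag1 these included Aqp5 (0.252) and Pdk3 (0.253). Aqp5, a water channel of secretory epithelia, was at 0.869 CPM in normal control, 9.78 in DEN model and 2.96 in PZH administration rats. For Jag2 they were Rbm3 (0.22), Galnt7 (0.252) and Scara3 (0.256). Jag2 was at 0.557 CPM in normal control rats, less than the 1 CPM added before the log, which makes its rise smaller on this scale. Rbm3 was at 14.3 CPM in normal control, 78 in DEN model and 21.9 in PZH administration rats, so its likeness to Jag2 depends on that added value.

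For Notch3 the nearest genes were Col8a1 (0.272), Ucp2 (0.3) and Clic1 (0.333). Col8a1, a collagen of vessel walls, was at 3.87 CPM in normal control, 25.6 in DEN model and 5.82 in PZH administration rats. For Heyl they were Cytip (0.15), Myo1f (0.169) and Msn (0.185), genes of the leukocyte and cortical cytoskeleton, with Msn at 48.3, 168 and 72 CPM.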

How the data were processed

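Liver mRNA of 9 rats was sequenced by the authors, and the results were deposited as 1 table over genes. The deposited count columns are raw, whole numbers of reads. The FPKM columns were also made by the authors, who divided by transcript length and sequencing depth. The submitters' processing notes name fastp, HISAT2 2.1.0, StringTie 1.3.3b and edgeR 3.30.3, without a role for each, and the genome build is not given in the sources used here. Fold changes, p-values and q-values of the authors' own comparisons were not used.

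Counts were tested in R 4.3.3 with edgeR 4.0.16 (filterByExpr, TMM scaling, quasi-likelihood test), fitted to the 6 rats of a comparison with no covariate, and p-values were adjusted by Benjamini and Hochberg over all genes tested. A gene changed at an adjusted p under 0.05, and the study's screen was counted beside it. The code was tested on simulated counts. CPM used TMM-scaled library sizes of all 9 rats, over the 14479 genes kept. Alternatives were library totals, DESeq2 1.42.0, no filter, at least 10 counts in every rat, 1 fit of all 3 groups, and leaving out each rat. Beyond group, sex and strain, the sequenced rats are known only by their numbers. The p-values weigh the difference between groups against the spread between rats, which edgeR estimates with help from all genes. The PZH dose and the week of sampling are not known and may differ between rats or groups. Values of genes with few counts are the least precise.

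The members and the lists of other pathway genes and cell type markers were chosen with earlier results of these data known. All 10 members were named, along with up to 4 other pathway genes with the largest changes among those that passed in each comparison (none in PZH administration against normal control) and the 3 genes nearest to each member past the screen, except for an item that is not reported here. Kat2b was matched through a RefSeq synonym, and Maml3, Ep300 and the endothelial marker Pecam1 were not found in the table used. Promoters came from RefSeq (GRCr8), 250 bases before to 50 after each start, of which the former were searched.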

Additional observations from a re-analysis of the deposited data

How the results depend on the processing

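With 3 rats in each group, settings that kept all rats left the direction and the call of the members as they were in 117 of 132 values, lost 2 calls and gained 8 with the sign kept, and turned 5 signs, with 1 more call lost (Hes1) and 1 more gained (Notch2) among these. Leaving out 1 rat kept 119 of 162, lost 31 calls and gained 1 with the sign kept, and turned 11 signs. Library totals turned Hes1 in DEN model against normal control to 0.05 and gave -0.67 for Notch2 in PZH administration against DEN model, where 8 members and 23 other pathway genes were then called, beside 6252 of all 14272 genes. Notch2 there was also -0.002 with no filter, -0.032 with at least 10 counts in every rat and -0.023 in 1 fit of all 3 groups, against 0.001. The study's screen called 4 members and 2 other pathway genes in DEN model against normal control, and 0 and 0 in PZH administration against DEN model, and 0 members in PZH administration against normal control. In the last comparison DESeq2 called 2 members and 1 other pathway gene, and 1 fit of all 3 groups called 2 and 1, beside 1320 of 13348 and 1000 of 14479 genes. Leaving out each rat in turn gave 4 to 6 members in DEN model against normal control, 0 to 3 members and 0 to 12 other pathway genes in PZH administration against DEN model, and 0 to 1 members and 0 to 2 other pathway genes in PZH administration against normal control. It called 4724 to 6790, 271 to 3319 and 207 to 1326 of all genes in these comparisons. It also gave -0.05 to 0.23 for Notch1 in DEN model against normal control, -0.094 to 0.066 for Notch2 and -0.57 to 0.11 for Dll1 in PZH administration against DEN model, and -0.055 to 0.192 for Notch2 and -0.30 to 0.38 for Dll1 in PZH administration against normal control. The cause of these shifts was not tested. No paired analysis was possible because the groups share no replicate numbers. Depth limits Jag2 in normal control rats and Hey1 in all groups, which had 1 to 22 counts.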

Other observations

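Hes6 and Hey2, chosen here after their values were seen, are other Hes and Hey genes in which 1 rat stood far above the rest of its group. In PZH administration rats it had 769 counts in G27, 80 in G28 and 77 in G42 (12.2, 2.22 and 2.22 FPKM), where normal control rats had 190 to 372 counts and DEN model rats 64 to 152. Its log2 fold change in PZH administration against DEN model was 1.69 (adjusted p = 0.14 by edgeR's quasi-likelihood test). Over the members G27 held no such value, and its Hes1 was the lowest of the PZH administration rats at 8.67 FPKM. Hey2 had 66, 17 and 26 counts in DEN model rats and 1, 16 and 10 in normal control rats (log2 fold change 1.13, which did not pass the test).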
